A study of Mus musculus with 20 samples.

Results

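The response to hypoxia was examined across brain, heart, lung and skeletal muscle of C57BL-6J mice aged 20 weeks. Of the 20 arrays of the series, 8 entered the comparison, chosen by their titles: 4 hypoxia arrays and 4 control arrays, 1 of each per tissue. Control tissue is described as having had neither hypoxia nor disturbed sleep. A further 4 arrays, 1 per tissue, came from mice with sleep fragmentation and shared in the estimate of the spread. The study concerns sleep apnea in mice, and the comparison asks which transcripts differ between hypoxia and control tissue in the same direction in all 4 organs. The sources used here give neither the oxygen level and length of exposure of these mice nor the time of day of tissue collection. Whether each array holds 1 mouse or a pool is not stated either, so a p-value here measures the spread between arrays. With 1 array per tissue and condition, that spread also holds differences between tissues in their response to hypoxia or fragmentation. A response confined to some tissues therefore widens the standard error. The tissues stand in for replicates, and no array title ties the tissues of a condition to separate mice. The p-values and standard errors therefore need not hold the spread between mice. In bulk tissue, fewer cells of a type and less RNA per cell cannot be told apart.

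Cells sense low oxygen through prolyl hydroxylases, which mark the HIF-1 alpha and HIF-2 alpha subunits for degradation as long as oxygen is present. Stabilised HIF binds the core motif ACGTG near its target genes, among them genes of glycolysis, of glucose uptake (Slc2a1) and of blood vessel growth (Vegfa). Glucocorticoids, hormones of the adrenal stress axis, act through their own receptor on genes such as Fkbp5 and Ddit4. Immediate early genes, such as Fos and Zfp36, are transcribed within minutes of a stimulus and their messengers are short-lived.

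The values are array intensities, 1 per probe set, that were quantile normalized over 12 arrays, and a log2 level is the log2 of that intensity plus an offset of 97.7. The trimmed mean of the deposited intensities was 2670 on the brain hypoxia array and 799.9 on each of the other 11 arrays of these tissues. The tissues carried their defining markers: Snap25 and Mbp, of neurons and myelin, had 13760 and 17040 on the brain hypoxia array, against 15330 and 17840 on the brain control array, and Tnnt2, cardiac troponin T, had 15260 on the heart hypoxia array, against 17840 on the heart control array. Slc34a2, a phosphate carrier of alveolar cells, had 15330 and 15490 in hypoxia and control lung, and Ryr1, the calcium release channel of skeletal muscle, had 17410 and 17840 in hypoxia and control muscle. Other defining markers were low in their own tissue. The surfactant gene Sftpc had 10.3 in hypoxia lung and 194 in control lung, and the muscle actin gene Acta1 had 1605 in hypoxia muscle and 1430 in control muscle, below its level in heart. Spearman correlations over all probe sets between the hypoxia and the control array were 0.944 in brain, 0.942 in heart, 0.959 in lung and 0.928 in muscle.

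No gene passed the test of the mean hypoxia difference over the 4 tissues. Of 7453 probe sets tested with limma, 0 passed an adjusted p of 0.05 (0%), and the smallest adjusted p was 0.908. At an unadjusted p under 0.05 there were 371 probe sets (4.98%), where an even spread of p-values gives 372.65. Of these, 172 were higher with hypoxia (2.31%) and 199 were lower (2.67%). The difference had the same sign in all 4 tissues for 506 higher (6.79%) and 421 lower (5.65%) probe sets. The median standard error of a mean log2 difference was 0.184. In 36 probe sets that mean was 1 or more in size, the extremes being 1.5 and -1.51. With 4 arrays a group, the number of arrays limits the precision of every value that follows.

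**Figure D1:**
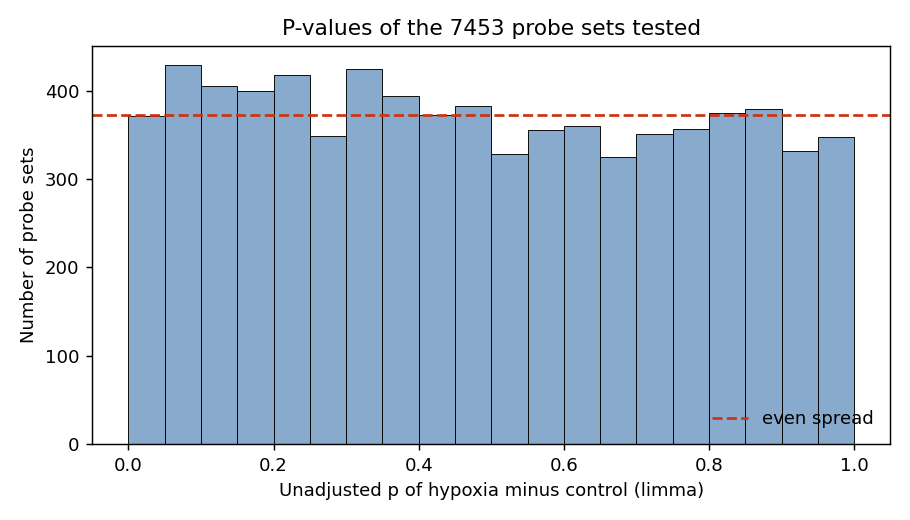
Number of probe sets (vertical axis) by unadjusted limma p of hypoxia minus control (horizontal axis, 20 bins), with a dashed line at the even spread of 372.65 per bin. The lowest bin holds 371 probe sets, and the bins range between 325 and 429.

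Among genes higher on the hypoxia array of every tissue, Apod had the smallest p. Apod encodes apolipoprotein D, a secreted carrier of small lipids that is made by glia and many other cells. Its intensities were 6429, 374, 255 and 917 on the hypoxia arrays of brain, heart, lung and muscle, against 5119, 59.2, 63.0 and 321 on the control arrays in that order. Each hypoxia array lay above the control array of its tissue, by the least in brain, where the gene was bright on both. The log2 difference of Apod was 0.32 in brain, 1.59 in heart, 1.13 in lung and 1.28 in muscle. Its mean was 1.08 ± 0.21 (standard error of the fit, 4 tissues), with an unadjusted limma p of 0.000482 and an adjusted p of 0.908.

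Kifap3, a subunit of the kinesin-2 motor, came next by p. It had 5261, 856, 1007 and 1275 on the hypoxia arrays of brain, heart, lung and muscle, against 3311, 644, 455 and 602 on the control arrays. All 4 tissues lay on the same side, with a mean log2 difference of 0.75 ± 0.15 and the same adjusted p of 0.908. Dlgap4, a scaffold protein of synapses, had 1388, 467, 582 and 631 with hypoxia, against 830, 288, 301 and 109 in control. Muscle had the widest gap for this gene, and the mean difference was 0.95 ± 0.26. Fzd2, a Wnt receptor, had mean 0.92 ± 0.24, with 1.27 in brain and 0.40 in lung. Nfyb, a subunit of the CCAAT-binding factor NF-Y, lay between 0.57 and 0.73 in the 4 tissues. Ttr, the thyroid hormone carrier transthyretin of choroid plexus and liver, had a mean of 0.67 ± 0.20. The remaining named genes on this side were Trim41, Arglu1, Diaph1, a formin that nucleates actin filaments, and Tomm70a, a receptor of the mitochondrial import channel, with means from 0.45 to 0.54. Other probe sets disagreed for some of these: both further tested ones of Diaph1 and the 1 of Tomm70a had means of the opposite sign.

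On the lower side, Mob2, a regulator of NDR kinases, had 101, 152, 312 and 162 on the hypoxia arrays of brain, heart, lung and muscle, against 488, 588, 1166 and 251 on the control arrays. The gap was narrowest in muscle, and the mean log2 difference was -1.27 ± 0.27 with an adjusted p of 0.908. Rpl37a, a protein of the large ribosomal subunit, had 3003, 5334, 1835 and 4546 with hypoxia, against 9546, 6809, 4126 and 9875 in control, with a mean of -1.05 ± 0.26. Both groups overlap for this gene when tissues are pooled, but the hypoxia array was the lower one in each tissue. Rcan1, an inhibitor of the phosphatase calcineurin, had 2357, 3232, 1054 and 2447 with hypoxia, against 3363, 5019, 2849 and 3520 in control, with a mean of -0.74 ± 0.19. Its hypoxia arrays all lay below the lowest control array except heart. Ak4, a mitochondrial adenylate kinase, had a mean of -0.71 ± 0.19 and was lowest in lung, at -1.04, while the other Ak4 probe set tested had a mean of the opposite sign. Taf1d, Sprr2b, Etf1, Aanat, Ctnnd2 and Nr1i3 completed the named genes, with means from -0.96 to -0.45, and 3 of 4 further Etf1 probe sets had means of the opposite sign. Of the 10 probe sets on this side, 6 carry an ID ending in _r_at, _f_at or _i_at. These are marks of the platform for probe sets with fewer or shared probes. On the higher side 0 of the 10 carry them, against 14.7% of all those tested. With the endings _s_at and _g_at added, as for Kifap3 on the higher side, 8 of these 20 are marked, against 19.6% of all tested.

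**Figure D2:**
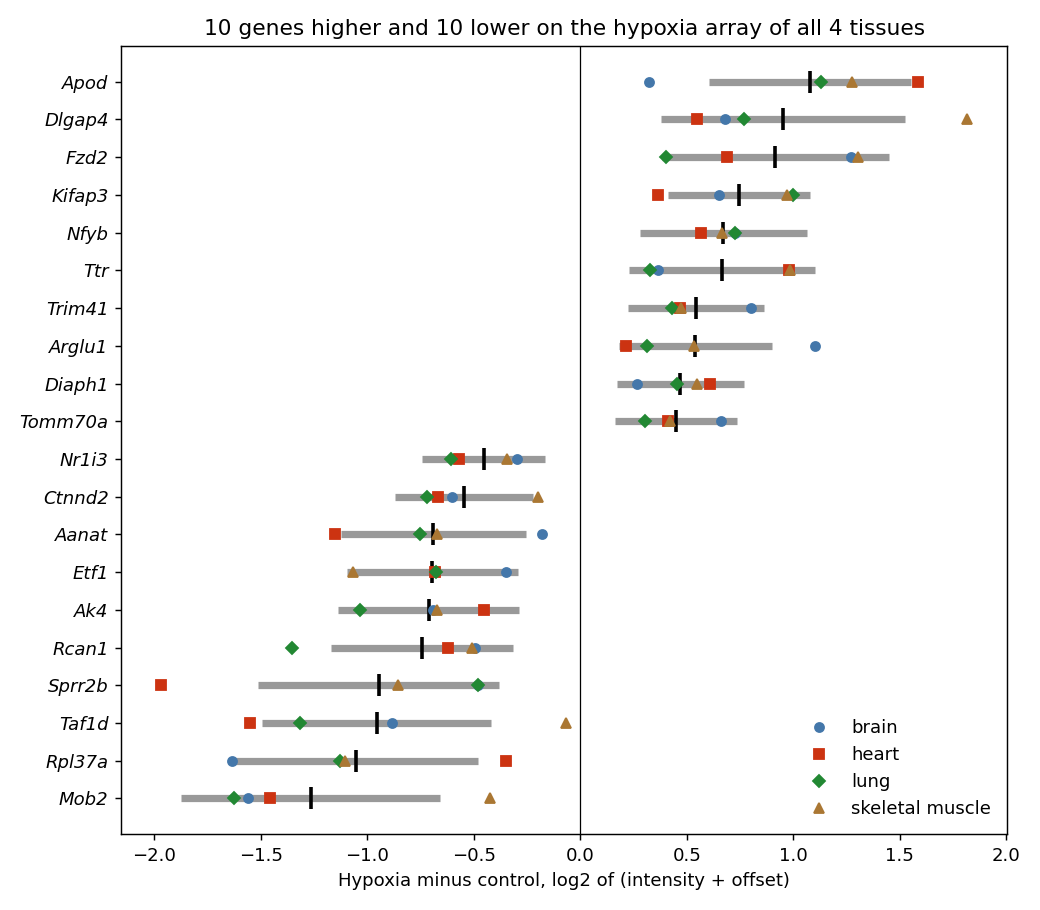
Log2 difference, hypoxia minus control, of the 10 genes with the smallest p among those higher, and the 10 among those lower, in all 4 tissues. Symbols are tissues (1 array pair each), the black tick is the fitted mean and the grey bar its 95% confidence interval, unadjusted for the choice of the genes. Apod runs between 0.32 and 1.59, and Mob2 between -1.63 and -0.42.

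The canonical hypoxia response was not called in any member. Of 44 listed genes (HIF subunits, their regulators and targets outside glycolysis) 37 were on the array and 29 passed the filter on low values. Of these, 20 had a mean above 0 and 9 below, with 0 called in either direction and a median of 0.11, against 0.005 over all 7453 probe sets, of which 50.9% had a mean above 0. The median lay at 0.04 in brain, 0.29 in heart, 0.11 in lung and 0.09 in muscle. Bnip3, Ddit4, Bhlhe40 and Flt1 were higher in all 4 tissues, and Hif1a and Hmox1 were lower in all 4, which is 13.8% and 6.90% of the list, against the 6.79% and 5.65% above. Ddit4 and Bnip3 are known HIF targets, and their promoters are shown, as those of the list's members with the widest and the next widest mean difference among the 4, from RefSeq (build GRCm38.p6), with the HIF core motif ACGTG, on either strand, in capitals. They cover the 250 bases before the start of transcription, read along the gene, which lies on the minus strand in both cases: chr10:59951771-59952020 for Ddit4 and chr7:138909507-138909756 for Bnip3.
Ddit4: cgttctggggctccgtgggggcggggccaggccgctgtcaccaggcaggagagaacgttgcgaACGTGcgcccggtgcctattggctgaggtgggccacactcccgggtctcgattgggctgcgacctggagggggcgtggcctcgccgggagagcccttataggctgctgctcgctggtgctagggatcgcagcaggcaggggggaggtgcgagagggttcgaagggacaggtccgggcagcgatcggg
Bnip3: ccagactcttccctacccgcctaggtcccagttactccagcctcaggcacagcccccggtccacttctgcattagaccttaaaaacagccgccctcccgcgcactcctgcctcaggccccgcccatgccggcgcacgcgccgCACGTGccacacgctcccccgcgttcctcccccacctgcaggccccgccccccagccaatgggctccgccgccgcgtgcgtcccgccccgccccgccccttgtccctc
The match starts 187 bases before the start of Ddit4 and 108 before that of Bnip3, where the palindrome holds the motif on both strands. The 250 bases before Flt1 hold no such letters. Among 32851 promoters of RefSeq, 16.6% hold the motif in this window, and among 40 promoters of 32 matched genes of the list 40% do, which is a description of letters and not of binding.

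Ddit4, an inhibitor of mTORC1 signalling, had 1865, 2745, 2037 and 350 on the hypoxia arrays of brain, heart, lung and muscle, against 1618, 873, 780 and 58.4 on the control arrays. Brain differed least and the other tissues by about the same, and the mean log2 difference was 1.14 ± 0.39 (unadjusted 95% interval 0.27 to 2.0), with an adjusted p of 0.908. Bnip3, a mitophagy receptor, had 3253, 4170, 1218 and 6511 with hypoxia, against 1824, 3006, 1091 and 4990 in control, with a mean of 0.45 ± 0.20. Bhlhe40, a transcriptional repressor also tied to the circadian clock, had 1571, 1472, 1517 and 3377 with hypoxia, against 1350, 891, 1029 and 2609 in control, with a mean of 0.44 ± 0.18. Flt1, a VEGF receptor of endothelium, had a mean of 0.32 ± 0.15, with tissue values of 0.22 to 0.39. Its other probe set was below 0 in brain and muscle, at -0.09 and -1.09, and at 2.14 in heart and 0.82 in lung. Vegfa had 631, 2447, 5223 and 1170 with hypoxia, against 366, 2092, 4901 and 1345 in control. It was higher in 3 tissues and lower in muscle, with a mean of 0.19 ± 0.19 (95% interval -0.22 to 0.61). The glucose transporter gene Slc2a1 had 1181, 216, 480 and 79.1 with hypoxia, against 1682, 60.7, 261 and 108 in control, higher in heart and lung and lower in brain and muscle, and averaged 0.25 ± 0.23. Hif1a averaged -0.19 ± 0.15, between -0.37 and -0.07 in the tissues, and -0.02 on its other probe set, which was above 0 in lung and muscle. Hmox1, heme oxygenase 1, averaged -0.33 ± 0.22.

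Glycolysis had 18 genes tested of 23 listed, none called, with a median of 0.05. The tissues differed: medians were -0.26 in brain, 0.04 in heart, 0.35 in lung and -0.07 in muscle. On the lung hypoxia array 15 of 18 genes were higher, against 3693 of all 7453 probe sets. Aldoc, aldolase C, had 575 in hypoxia lung against 188 in control lung and 1096 in hypoxia muscle against 252 in control muscle. In heart it went the other way, and its mean was 0.75 ± 0.29. Skeletal muscle markers were also higher on that lung array, as described below with lung, and their part in its glycolysis values was not tested.

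Of 36 listed genes of the glucocorticoid response 29 were tested, with 21 means above 0, 8 below, 0 called and a median of 0.13. Medians were 0.08 in brain, 0.27 in heart, 0.27 in lung and 0.01 in muscle. Fkbp5, a co-chaperone that lowers the hormone affinity of the glucocorticoid receptor, had 1693, 2230, 2596 and 2935 on the hypoxia arrays of brain, heart, lung and muscle, against 933, 799, 1046 and 3167 on the control arrays. It was higher in 3 tissues and not in muscle, where the control array was the brightest of the 4, and averaged 0.83 ± 0.25. Zbtb16, a zinc finger repressor, had the same pattern, with 1906, 3887, 6049 and 4116 against 1118, 1698, 2708 and 4870 in control, and averaged 0.69 ± 0.22. Sgk1, a kinase of ion transport, averaged 0.54 ± 0.22 and differed most in brain, at 1.30. Sult1a1, a sulfotransferase, was higher in all 4 tissues with a mean of 0.44 ± 0.15, and Pdk4, which restrains pyruvate oxidation, was lower in all 4 with a mean of -0.36 ± 0.17. The adjusted p of each was 0.908.

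The circadian clock list held 15 tested genes with a median of -0.06 and none called. Nr1d2, a repressor of the clock, averaged 0.39 ± 0.14 and Per1 averaged 0.39 ± 0.19, each higher in all 4 tissues. Arntl, the BMAL1 gene, was lower in heart, lung and muscle and averaged -0.36 ± 0.18. In heart the output gene Dbp had 820 with hypoxia against 258 in control.

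Immediate early genes lay mostly on the other side. Of 50 listed, 41 were on the array and 37 were tested, and of these 12 had means above 0 and 25 below, with 0 called and a median of -0.11. In 6 of them (Fos, Zfp36, Ier2, Dusp1, Dusp2 and Jun), or 16.2%, the hypoxia array was lower in all 4 tissues, against 5.65% of all probe sets, and 1 was higher in all 4 (Per1, 2.70%). Among the 6, Fos was near level in brain (1326 with hypoxia against 1335) and Jun in lung (1454 against 1470). The median of the list was -0.12 in brain, 0.11 in heart, -0.10 in lung and -0.11 in muscle.

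Fos, a partner of Jun in the AP-1 transcription factor, had 1326, 462, 2292 and 514 on the hypoxia arrays of brain, heart, lung and muscle, against 1335, 1057, 6026 and 1088 on the control arrays. The brain pair was level and the other pairs lay well apart, with a mean log2 difference of -0.84 ± 0.26 and an adjusted p of 0.908. Zfp36, tristetraprolin, which binds AU-rich messengers and speeds their decay, had 210, 2001, 2157 and 427 with hypoxia, against 713, 2297, 3377 and 1157 in control. Brain and muscle differed most, at -1.40 and -1.26, and heart least, at -0.19, with a mean of -0.87 ± 0.25 and an adjusted p of 0.908. Ier2 had 452, 992, 2922 and 518 with hypoxia, against 971, 1748, 4314 and 585 in control, averaging -0.60 ± 0.21. Dusp2, a phosphatase of MAP kinases, averaged -0.44 ± 0.15, and its relative Dusp1 -0.31 ± 0.14. Nr4a1, an orphan nuclear receptor, averaged -0.54 ± 0.23 but was higher in brain, at 0.25. Egr1 averaged -0.42 ± 0.19. Jun averaged -0.62 ± 0.42 and Jund -0.62 ± 0.43, where Jund differed most in brain, with 572 on the hypoxia array against 3296 in control. In heart, Junb (1072 with hypoxia against 368 in control), Maff (338 against 62.8) and Ccn2 (3044 against 1394) were at least 2-fold higher. Maff was also higher in brain and muscle, at 0.43 and 0.12, and lower in lung. Ccn2 was also higher in brain and lung, at 0.44 and 0.33, and lower in muscle. The other Junb probe set had 0.28 in heart and 0.28 in muscle, and was lower in brain and lung.

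**Figure D3:**
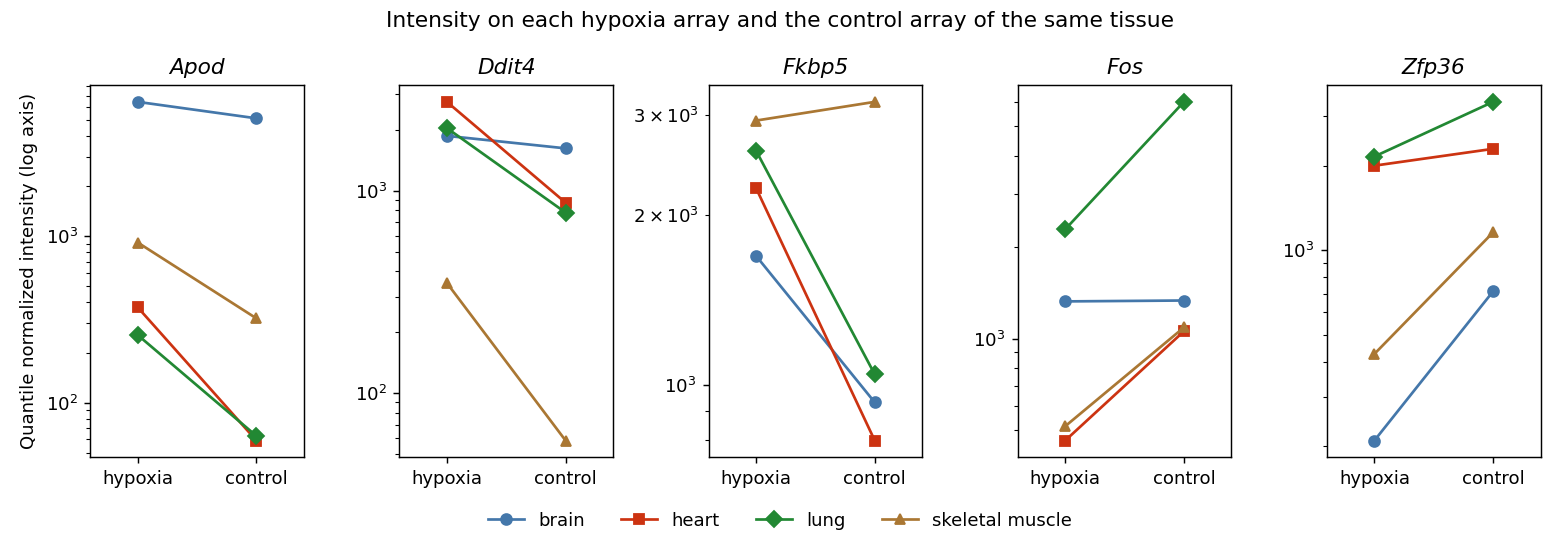
Quantile normalized intensity (log axis) of Apod, Ddit4, Fkbp5, Fos and Zfp36 on the hypoxia array (left) and the control array (right) of each tissue, joined by a line per tissue. Apod and Ddit4 are higher with hypoxia in every tissue, Fkbp5 in all but muscle, and Zfp36 lower in every tissue; the brain values of Fos are 1326 and 1335.

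Further lists were tested in the same way, and over 19 lists with 492 memberships of 472 probe sets, 0 were called. List medians ran between -0.14 and 0.13, and in 3 of the lists, those of the hypoxia response, the glucocorticoid response and the proteasome, the medians of all 4 tissues lay above 0. The proteasome and muscle atrophy list had 23 of 29 means above 0 and a median of 0.09. In 6 members the hypoxia array was higher in all 4 tissues (20.7%, against 6.79% of all probe sets): Psma3, Psmb5, Psmc1, Psmc2, Psmc3 and Psmc5, which are subunits of the proteasome. Other probe sets disagreed for a pair of them: the other one of Psmb5 averaged -0.34, and the other ones of Psmc3 averaged -0.14 and 0.05. Psmc2, an ATPase of its cap, had 3670, 3633, 1855 and 4888 with hypoxia, against 2336, 2675, 1654 and 3863 in control, and averaged 0.39 ± 0.13. Psmc5 was level in heart, at 1924 with hypoxia against 1923 in control.

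Extracellular matrix genes had 21 of 37 means below 0. In all 4 tissues 6 were lower (16.2%, against 5.65% of all probe sets), among them Col1a1, Col3a1, Sparc and Timp1. Col1a1, the chain of type I collagen, had 1398, 2513, 2354 and 1916 with hypoxia, against 1412, 3754, 2978 and 4592 in control, and averaged -0.53 ± 0.21. Serpinh1, the collagen chaperone of the endoplasmic reticulum, averaged -0.65 ± 0.22. Thbs2, thrombospondin 2, went the other way, with 281, 1279 and 517 in hypoxia brain, heart and muscle, against 65.0, 546 and 61.4 in control, while lung was lower. The respiratory chain had 59 genes tested and a median of -0.001, with 47 of 59 higher on the lung hypoxia array (median 0.17) and 22 of 59 on the brain hypoxia array. Of all 7453 probe sets, 3693 were higher on the lung and 3928 on the brain hypoxia array. Ribosomal protein genes had 13 of 24 means above 0. Antioxidant genes had 17 of 36 means above 0, with Gsta4, a glutathione transferase, higher in all 4 tissues at 0.39 ± 0.13. The interferon list had 6 of 19 means above 0, the inflammation list 7 of 19 and the cell cycle list 6 of 21. The hemoglobin probe sets had no common direction: Hbb-b2 averaged 0.23 ± 0.18 and Hba-a1 -0.11 ± 0.55. Their levels also ran opposite ways over tissues. Hba-a1 had 13040 in control brain, 769 in control heart and 762 in control lung, where Hbb-b2 had 3174, 14150 and 17840. They were thus not read as a measure of blood in a tissue.

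**Figure D4:**
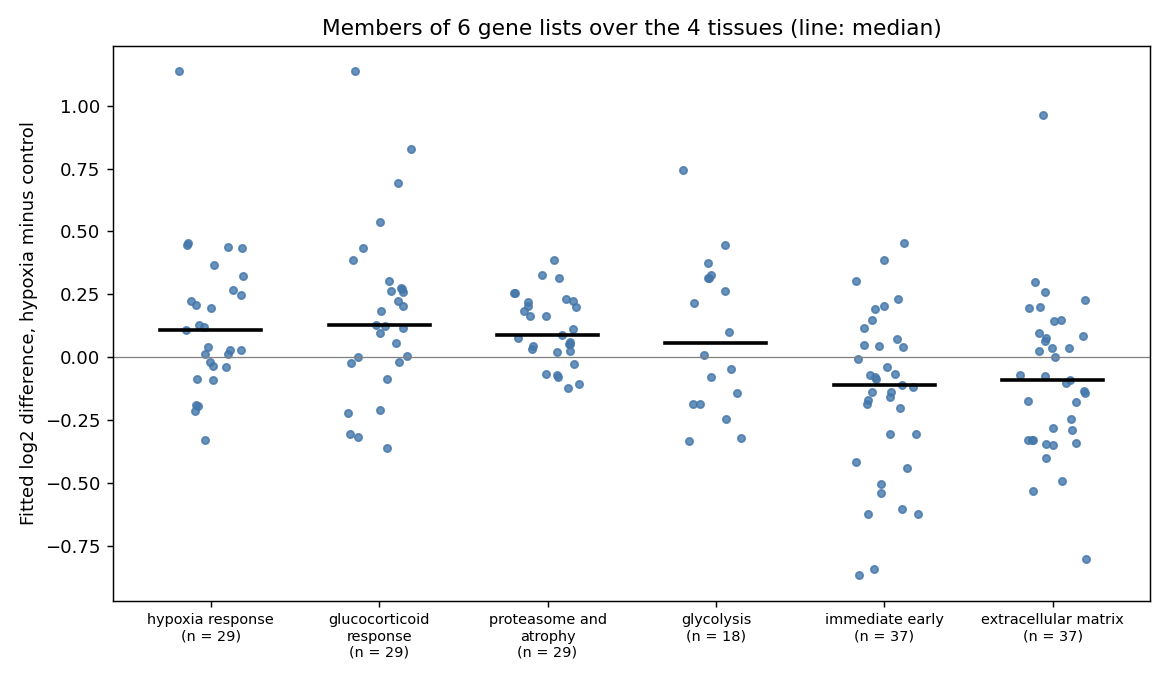
Fitted log2 difference over the 4 tissues (vertical axis) of each tested member of 6 gene lists, with a line at the median. The medians are 0.11 for the hypoxia response, 0.13 for the glucocorticoid response, 0.09 for the proteasome list, 0.05 for glycolysis, -0.11 for immediate early genes and -0.09 for extracellular matrix.

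Within a single tissue there is 1 array on each side, so nothing could be tested, and counts of probe sets at least 2-fold apart describe the arrays. In brain 149 were higher with hypoxia (2%) and 308 lower (4.13%), in heart 283 (3.8%) and 161 (2.16%), in lung 102 (1.37%) and 117 (1.57%), and in muscle 209 (2.8%) and 310 (4.16%). Few were shared: 0 were 2-fold apart the same way in all 4 tissues, and 3 higher and 12 lower were so in 3 tissues. Those 3 are Ddit4, Apod and Thbs2, and the 12 include Mob2, Rpl37a, Reg3b and Fabp2. Reg3b and Fabp2 are among the genes described below as high on the muscle control array. Most of the 12 carry an ID ending in _r_at or _f_at, and most lay above control in the remaining tissue, by as much as 3.64 in heart. Mob2 and Rpl37a were lower in the remaining tissue too. Of the 3 higher ones, Thbs2 was lower in lung. Of the probe sets tested, 137 were 2-fold higher in one tissue and 2-fold lower in another.

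In brain, the 6 named genes furthest below control were Atp6v0e2, Scgb1a1, Cplx1, Epn1, App and Pvalb, of which all but Scgb1a1 are transcribed in neurons. App, the amyloid precursor protein gene, had 253 on the hypoxia array, against 6078 on the control array and 11490 on the fragmentation array. Cplx1, complexin 1 of synaptic vesicle release, had 83.9 against 3619 in control, and Epn1, epsin 1 of endocytosis, 190 against 5389. Atp6v0e2, a subunit of the vacuolar proton pump, had 16.4 against 2962. These are 17.6-fold to 26.8-fold gaps on the scale with the offset, and the fragmentation array lay at or above control for each. Probe sets in the brightest 10% of the brain fragmentation array made up 33.1% of the 308 that were 2-fold lower and 62.3% of the 61 that were 4-fold lower, against 16.7% of all those tested. The brain hypoxia array had a trimmed mean 3.34 times that of the brain control array before normalization. On it the 3' control probe set of Actb had a deposited intensity of 594, against 13470 for the middle and 17310 for the 5' one, while the brain control array had 5293, 8300 and 7750. The 3' to 5' ratio of Actb was thus 0.0343 on the brain hypoxia array and 0.683 on the brain control array, but it was as low on the lung arrays, at 0.0351 with hypoxia, 0.0288 in control and 0.0635 with fragmentation. The same ratio of Gapdh was 1.6 on the brain hypoxia array and 0.873 on the brain control array. It was 0.136 and 0.443 in hypoxia and control heart, and 0.00899 and 0.0261 in hypoxia and control muscle. The part of these array properties in the brain values was not tested. Pvalb, parvalbumin, had -4.09 on the named probe set and -0.67 on its other one.

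The 6 highest brain genes, Camk2a, Map2, Mef2c, Ddx6, Syt1 and Wnk1, were lowest on the control array of the 3 brain arrays. Camk2a, the calcium and calmodulin dependent kinase of excitatory synapses, had 1912 with hypoxia and 123 in control, and 1607 with fragmentation. Map2, a dendritic microtubule protein, had 1974 with hypoxia and 317 in control, and Syt1, the calcium sensor of vesicle release, 12510 and 2859. The fragmentation array lay with the hypoxia array for Camk2a and Map2. The 3 other probe sets of Mef2c had brain differences of 1.14 or more, while those of Ddx6 had -0.11 and 0.72 and those of Wnk1 -0.01 and 1.37. Scgb1a1, the club cell secretoglobin of airways, had 456 on the brain hypoxia array, against 12890 on the brain control array and 557 on the fragmentation array. The lung marker list summed to 2133 in hypoxia brain and 15960 in control brain, and Scgb1a1 made up most of the second sum. The alveolar markers Slc34a2 and Ager had 185 and 184 in hypoxia brain, against 227 and 235 in control brain. In lung itself Scgb1a1 had 384 with hypoxia and 314 in control. Acta1 of muscle had 3601 in hypoxia brain, 7863 in control brain and 393 on the fragmentation array. The source of such values on the brain control array was not tested.

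In heart, the highest were Nomo1, Nr1h3, Gpcpd1, Clip1, Phf7 and Ucp1. Nr1h3, the oxysterol receptor LXR alpha, had 1066 with hypoxia, against 81.0 in control, and 654 with fragmentation. Ucp1, the uncoupling protein of brown fat, had 3982 with hypoxia, against 743 in control, and 267 with fragmentation. Its other probe set had 797 with hypoxia and 565 in control. A second brown fat marker, Cidea, had 2426 against 1190 in control, and Elovl3 had 67.3 against 23.3. The brown adipocyte list summed to 24630 with hypoxia and 23870 in control, a sum made up mostly of Cox7a1 (13480 and 13130) and Cox8b (7477 and 8574), subunits of cytochrome oxidase that heart muscle expresses too. White adipocyte markers summed to 11690 with hypoxia and 11310 in control, with Adipoq higher (2351 against 977) and Lep lower (1556 against 3139). The part of brown or white fat in the heart values was not tested. Phf7 had 2.28 on the named probe set and 0.20 on its other one. Several contractile genes of heart were lower: Myh6, the alpha myosin heavy chain, had 4842 with hypoxia against 14620 in control, and Tnni3, cardiac troponin I, 4833 against 9352. Myh7, a further myosin heavy chain, was not lower in heart, at 8833 against 8070. The heart marker list had a median of -0.52 in heart, with 2 of 12 members higher there, against 3818 of all 7453 probe sets. Those 2 were Ryr2 (12640 against 8433) and Actc1 (2695 against 1286). The other Actc1 probe set had a log2 difference of -0.08 in heart. The summed intensity of the list was 71590 with hypoxia, against 96610 in control. The heart hypoxia array had Spearman correlations of 0.832 to 0.850 with the 3 lung arrays, against 0.784 to 0.812 for the heart control array, while lung markers summed to 4864 with hypoxia and 4436 in control. The share of other tissue in the heart samples was not tested beyond these marker sums. Abcg1, a sterol exporter, had 1100 with hypoxia against 5433 in control, and 1641 with fragmentation. Myl2, the ventricular myosin light chain, had 118 with hypoxia against 895 in control, and 151 with fragmentation. For both, the control array was the highest of the 3 heart arrays. Myl2 was also lower in heart than in hypoxia and control muscle, at 2483 and 5065.

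In lung, 5 of the 6 highest were genes of muscle fibres, Acta1, Myh1, Atp2a1, Tnnt3 and Myl3. Acta1 had 9953 on the hypoxia array, against 106 on the control array and 500 on the fragmentation array. Myh1, a fast myosin heavy chain, had 2347 with hypoxia, against 8.23 in control, and Tnnt3, fast troponin T, 1531 against 48.5. Atp2a1, the calcium pump of fast fibres, and Myl3, a myosin light chain of slow fibres and heart, had 2946 against 166 and 1551 against 101. Of 17 tested skeletal muscle markers 13 were higher in lung, against 3693 of all 7453 probe sets, and 10 were at least 2-fold higher, against 102. Their median log2 difference was 1.27, and the list summed to 31850 with hypoxia, against 11030 in control and 12430 with fragmentation. Their part in other lung differences was not tested. Among other genes, Fth1, ferritin heavy chain, had 9032 with hypoxia against 182 in control on 1 of its probe sets, while the other Fth1 probe set tested had a log2 difference of 0.07 in lung. Fkbp5, Zbtb16 and Ddit4, given above, were each more than 2-fold higher in lung. The lowest in lung, Thyn1, Traip, Itgav, Dctpp1, Gstm2 and Pip4k2c, were 3.15-fold to 4.09-fold lower, and 2 of them, Thyn1 and Gstm2, had 300 and 653 with hypoxia against 1527 and 2357 in control. Of these 6, all but Traip have another tested probe set, and its lung difference was -0.20 for Thyn1, 0.13 for Itgav, -0.36 for Dctpp1, -0.09 for Gstm2 and 0.07 for Pip4k2c.

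In skeletal muscle, the highest were Scd1, C1qb, Retn, Ina, Map11 and Adipoq, and Retn and Adipoq are genes of fat cells. Other probe sets had muscle differences of -0.17 for C1qb, -0.02 for Ina, 0.02 for Map11 and 1.72 for Scd1. Scd1, stearoyl-CoA desaturase, had 10350 with hypoxia, against 979 in control, and 9805 with fragmentation. Adipoq, the adiponectin gene, had 3422 with hypoxia, against 561 in control, and 7169 with fragmentation, and Retn, resistin, 889 against 72.5. Fatty acid synthase, Fasn, had 2879 against 675. The list of fatty acid and triglyceride synthesis had 13 of 15 genes higher in muscle, against 3755 of all 7453 probe sets, with a list median of 0.41. White adipocyte markers had a summed intensity of 26700 in hypoxia muscle, against 20950 in control muscle and 38110 with fragmentation. Car3 alone had 13480, 14520 and 14450 of these sums, in that order. The part of the adipocyte markers in the lipid genes was not tested. The lowest were Apoa1, Snrpb, Reg3b, Myh7, Apoa4 and Fabp2. Apoa1 and Apoa4, apolipoproteins of liver and intestine, had 291 and 537 with hypoxia, against 5035 and 4228 in control, and 152 and 443 with fragmentation. Fabp2, the intestinal fatty acid binding protein, had 555 with hypoxia, against 4014 in control, and 22.7 with fragmentation. It was also higher on the control than the hypoxia array in brain (223 against 19.4) and heart (183 against 30.1), but not in lung. Apoa1, Apoa4, Fabp2 and Reg3b were highest on the control array of the 3 muscle arrays, and the source of those values was not tested. Myh7, the slow myosin heavy chain, had 216 with hypoxia, against 2615 in control, and 886 with fragmentation.

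**Figure D5:**
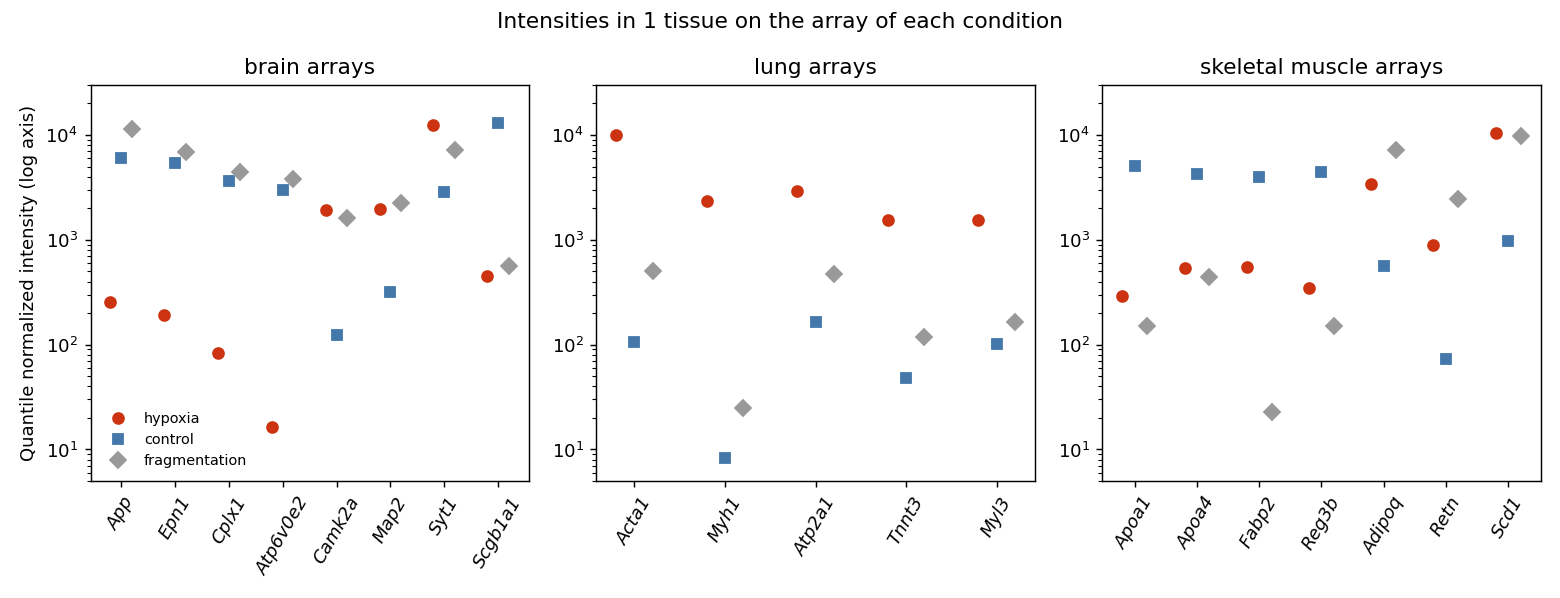
Quantile normalized intensity (log axis) of genes far apart within 1 tissue, on its hypoxia, control and fragmentation arrays. In brain App, Epn1, Cplx1 and Atp6v0e2 are low on the hypoxia array alone and Camk2a on the control array alone. In lung the muscle genes are high with hypoxia. In muscle Apoa1, Apoa4, Fabp2 and Reg3b are highest on the control array.

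Sleep fragmentation was set against the same 4 control arrays, so a control array that is low or high for a gene moves both differences together, and only the values are given. Apod was higher with fragmentation than in control by 0.71, 1.18, 0.36 and 0.98 on the log2 scale in brain, heart, lung and muscle, and with hypoxia by the 0.32, 1.59, 1.13 and 1.28 above. Ddit4 had -0.15, 1.25, 1.35 and 2.97 with fragmentation in that order. Fos had -1.07, -0.82, -0.46 and -0.50. Zfp36 had -1.16 in brain but 0.11, 0.45 and -0.11 in the others, and Bhlhe40 had -0.16, -0.75, 0.12 and -0.39.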

How the data were processed

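Gene expression was measured on short-oligonucleotide arrays of 12488 probe sets, of which 66 are platform controls and were left out. The authors deposited intensity values, linear and already summarised per probe set. How they were summarised and scaled is not given in the sources used. Of the other 12422 probe sets, the platform annotation gives 1 symbol to 10833, several to 396 and none to 1193, and only those with 1 symbol were named.

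The 12 arrays of brain, heart, lung and muscle (hypoxia, control and sleep fragmentation) were quantile normalized together and taken to log2 after adding 97.7, the percentile 20 of all positive deposited values. A probe set was tested if its mean in at least 1 tissue passed the 40th percentile of such maxima, which left 7453. The fit in limma 3.58.1 under R 4.3.3 (lmFit, eBayes, two-sided) took tissue and condition as terms, leaving 6 residual degrees of freedom, with Benjamini-Hochberg adjustment over all probe sets tested. Errors are standard errors of the fit. Tissue is the pairing, since replicate numbers stand for tissues. The fit was tested on simulated data.

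Genes were named by rule: the 10 with the smallest p in each direction with 1 sign in all 4 tissues, the 6 highest and 6 lowest within a tissue whose brighter array lay above its median, up to 6 members of a list by p, all tested members of the hypoxia response and immediate early lists, up to 4 markers of a tissue, and Apod, Fos, Zfp36, Vegfa, Slc2a1 and hemoglobin in any case. A few others, such as those of the muscle and fat markers in 1 tissue, were named after their values were seen. In a list, the brightest of a gene's probe sets stands for it. The members, the lists and the tests were chosen with earlier results of these data known. Alternatives changed the scaling, the offset, the filter, the tissue term, the moderation of variances and the arrays entered. Promoter windows came from RefSeq, and coordinates are 1-based.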

Additional observations from a re-analysis of the deposited data

Results flagged for a closer look

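Of 64 sets of 4 values (the tissue differences of the genes named over the 4 tissues, the tissue medians of gene lists and the median intensity of the arrays of a group), 5 held a value far from the other 3. The cut-off gives about 1 in 20 for independent sets not chosen by their values. These sets share arrays, and many of the genes were chosen by sign and p, so that rate does not apply. The median deposited intensity of the brain hypoxia array was 1475, against 380 to 396 on the other hypoxia arrays. Rcan1 had a log2 difference of -1.36 in lung, against -0.62 to -0.50 in the other tissues. Trim41 had 0.80 in brain, against 0.43 to 0.47 elsewhere. Mob2 had -0.42 in muscle, against -1.63 to -1.46 elsewhere. The median of the immediate early genes was 0.107 in heart, against -0.12 to -0.10 in brain, lung and muscle.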

How the results depend on the processing

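The count of probe sets called was 0 in all 24 alternatives, with a smallest adjusted p of 0.301, reached without the brain hypoxia array. At an unadjusted p under 0.05, where the count was 371, it was 601 without the filter, which tests more probe sets, 230 without the brightest probe sets and 17 without the tissue as replicate block. It ran between 256 and 491 when 1 array or 1 tissue was left out. Tissue is the pairing of the design, and the fit without it changed no other call. With an offset of 300, the counts of probe sets at least 2-fold higher and lower were 75 and 204 in brain, 111 and 69 in heart, 47 and 44 in lung and 87 and 140 in muscle. Leaving out probe sets of the special types, which tests fewer and was chosen after seeing the data, as was leaving out the brightest ones, gave 198 lower in brain, 106 lower in heart, and 66 higher and 61 lower in lung. Without the brightest ones 154 were lower in brain, and 60 higher and 65 lower in lung. Of 980 gene values under alternatives 961 kept their sign, and those that did not were of 4 hemoglobin genes and Slc2a1. Hba-x was 0.011 under trimmed-mean scaling. Leaving out 1 array or tissue gave a range of -0.20 to 0.15 for Hba-x, -0.63 to 0.22 for Hba-ps3, -0.44 to 0.44 for Hbb-bh1 and -0.52 to 0.42 for Hba-a1. For Slc2a1 it gave -0.0015 to 0.45, with the low end without heart. Over the alternatives, the mean of Apod ran between 0.70 and 1.375, and that of Ddit4 between 0.80 and 1.545. Of 228 list medians 219 moved by less than the spread of the list's tissue medians, but many moved by over 1.5 times. The hypoxia response, 0.11, was 0.036 with the filter at the 60th percentile, 0.03 without the filter and 0.0456 and 0.0451 without brain and heart. Glycolysis, 0.05, was 0.00988 under trimmed-mean scaling and ran between -0.02 and 0.12 over 12 alternatives. The glucocorticoid list, 0.13, was 0.214 under cyclic loess and ran between 0.08 and 0.26, and the proteasome list, 0.09, was 0.139 under cyclic loess. The ribosomal list, 0.03, was -0.0352 under trimmed-mean scaling. The circadian list, -0.06, was 0.155 without heart and 0.145 without muscle. Immediate early genes ran between -0.15 and -0.05. Where a value changed, the cause was not tested. The number of arrays, 1 per tissue and condition, limits what could be detected.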
